A study of Mus musculus with 12 samples.

Results

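The Id family consists of 4 genes, Id1, Id2, Id3 and Id4, which were taken by symbol from the 39179 genes counted by total RNA sequencing in 12 libraries of mouse embryonic stem cells. The libraries came from 2 experiments on bone morphogenetic protein (BMP) signalling. In the first, cells with a BRE-GFP reporter on a mixed CBA, C57Bl/6 background, grown in FCS with LIF on a feeder layer, were sorted for the antigen SSEA1 and by GFP into BRE-positive cells (3 libraries) and BRE-negative cells (3 libraries), collected as pairs on 3 occasions. In the second, Smad1/5 -/- cells (KO, 4 libraries) were set against Smad1/5 fl/fl cells (FL, 2 libraries), both on a mixed CD-1, 129/Ola, C57Bl/6 background and grown in 2i, a pair of kinase inhibitors, with LIF on gelatin. The floxed cells thus carry conditional alleles and are not wild type. Each of 2 parental lines gave 1 FL and 2 KO libraries, and the labels do not say which library belongs to which line. The sources used here give neither the GFP gates nor the deleted part of Smad1 or Smad5.

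ID proteins have a helix-loop-helix domain but lack the basic region with which other proteins of the class touch DNA. They bind E proteins such as E2A (encoded by Tcf3), HEB (Tcf12) and TCF4 and keep them, and the lineage factors that pair with them, from DNA. When a BMP ligand binds its receptors, SMAD1, SMAD5 and SMAD9 are phosphorylated, join SMAD4 and activate target genes, of which Id1, Id2 and Id3 are among the best known. In mouse embryonic stem cells, Id genes induced by BMP or serum are known to support self-renewal together with LIF, and elements of the Id1 promoter are the usual basis of BRE reporters.

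In the Ensembl annotation of GRCm38, Id1 (ENSMUSG00000042745) lies on the plus strand of chromosome 2 at chr2:152736251-152737410. Id2 (ENSMUSG00000020644) lies on the minus strand at chr12:25093799-25097140, Id3 (ENSMUSG00000007872) on the plus strand at chr4:136143497-136145755, and Id4 (ENSMUSG00000021379) on the plus strand at chr13:48261228-48266026. The Id4 interval overlaps 2 other annotated genes, A330033J07Rik, which had 0 to 1 counts per library, and Gm49291, which was not analysed here. Whether the counting used strand is not stated in the sources used here, and without it such reads cannot be told apart.

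The 250 bases before the RefSeq start of Id2, Id3 and Id4 (GRCm38.p6) are shown because SMAD complexes are known to bind GC-rich elements and the short SMAD-binding element near target genes, and these genes differed from one another in the comparisons below. Sequences run 5′ to 3′ on the strand of the gene. Capitals mark the GC-rich motif GGCGCC, its variant GGAGCC, and the core GTCT of the SMAD-binding element, all searched on both strands, so that a run of capitals may be the reverse complement.
Id2, chr12:25096093-25096342, minus strand: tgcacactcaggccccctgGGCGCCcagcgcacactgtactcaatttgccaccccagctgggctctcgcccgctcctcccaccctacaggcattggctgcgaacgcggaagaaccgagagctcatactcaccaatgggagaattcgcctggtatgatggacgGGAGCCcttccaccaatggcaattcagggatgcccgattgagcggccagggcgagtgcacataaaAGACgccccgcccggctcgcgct
Id3, chr4:136143572-136143821, plus strand: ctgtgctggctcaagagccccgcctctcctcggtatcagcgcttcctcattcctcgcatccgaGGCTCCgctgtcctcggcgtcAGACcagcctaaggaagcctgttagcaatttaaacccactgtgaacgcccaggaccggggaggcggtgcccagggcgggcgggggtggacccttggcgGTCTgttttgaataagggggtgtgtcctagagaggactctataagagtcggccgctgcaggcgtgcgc
Id4, chr13:48260866-48261115, plus strand: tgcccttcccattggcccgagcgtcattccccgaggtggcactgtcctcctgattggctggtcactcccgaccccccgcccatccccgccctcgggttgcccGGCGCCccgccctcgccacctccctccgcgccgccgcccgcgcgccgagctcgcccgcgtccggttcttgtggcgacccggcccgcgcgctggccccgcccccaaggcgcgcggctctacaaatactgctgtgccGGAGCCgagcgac
The windows of Id2 and Id3 lie inside the Ensembl gene intervals given above, because the RefSeq start used is farther downstream.

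GGCGCC occurred once upstream of Id2, at position -231 counted back from the annotated start, and once upstream of Id4, at position -148, and did not occur in the Id3 window. It was present in 9.59% of 32851 windows of the same length from all genes. GGAGCC occurred once in each of the 3 windows, at -88 in Id2, -187 in Id3 and -13 in Id4, against 26.0% of all windows. GTCT occurred once in Id2, at 2 places in Id3 and not in Id4, and 82.9% of all windows held it. The E-box CACGTG (6.02% of all windows) and either GC-rich motif followed after 5 bases by GTCT (0.07% for GGCGCC and 0.107% for GGAGCC) had no match in these 3 windows. None of the marked motifs overlapped another. The GC content was 62.8% for Id2, 62.8% for Id3 and 75.6% for Id4, with a median of 52.4% over all windows. These matches describe the letters in each window and do not show that a factor binds there.

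Library totals ran from 25862573 to 37319846 counts, and the Id genes had between 91 and 1021 counts in a library. The 12 pluripotency markers (such as Pou5f1, Nanog and Zfp42) summed to 4557 to 5244 CPM (counts scaled by TMM library size) in BRE-positive, 4260 to 5487 CPM in BRE-negative, 4080 to 4723 CPM in KO and 4780 to 5022 CPM in FL libraries, with none at 0. The 19 feeder fibroblast markers (such as Col1a2, Acta2 and Postn) summed to 90.9, 256 and 237 CPM in BRE-positive libraries 1 to 3 and to 145, 292 and 309 CPM in BRE-negative libraries 1 to 3. They summed to 26.5 to 33.5 CPM in KO libraries, where Postn and Lum were at 0, and to 28.9 and 43.0 CPM in FL libraries. Neither targeted gene passed the test between KO and FL cells. Smad1 stood at 14.4 ± 2.17 CPM in KO (SD, n = 4) and 18.6 ± 0.725 CPM in FL cells (SD, n = 2). Every KO library (12.3 to 17.4 CPM) was below both FL libraries (18.0 and 19.1 CPM). Of all genes tested, 34.7% did not overlap between KO and FL in either direction. The log2 fold change of Smad1 was -0.36 ± 0.14 (SE), with an edgeR adjusted p of 0.187. Smad5 stood at 30.5 ± 4.08 CPM in KO and 32.5 ± 1.70 CPM in FL cells (-0.09 ± 0.13, edgeR adjusted p = 0.719). Counts over whole genes can include reads from outside a deleted part, so these values check the labels in neither direction. The series calls the libraries biological replicates without describing separate cultures, so the p-values cover only the spread from library to library, which may be technical. In bulk RNA, fewer cells of a type and less RNA per cell cannot be told apart.

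Id1, Id2, Id3 and Id4 were detected in all 12 libraries and differed in how they ranked the 4 groups. Id1 and Id2 were high in both reporter groups and low in both Smad1/5 groups. Id3 was low in FL cells only, with KO cells at the level of the reporter cells. The group means of Id4 lay closest together.

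Id1 stood at 26.7, 27.6 and 29.0 CPM in BRE-positive, 18.6, 23.8 and 27.9 CPM in BRE-negative, 5.63, 5.45, 6.22 and 6.95 CPM in KO and 4.78 and 4.91 CPM in FL libraries. The means ordered BRE-positive (27.8 ± 1.15, SD, n = 3), BRE-negative (23.4 ± 4.65, n = 3), KO (6.06 ± 0.676, n = 4) and FL (4.84 ± 0.0966, n = 2). The 2 reporter groups overlapped, and each of the other neighbours in this order was separate. KO and FL libraries did not overlap for 34.7% of all genes tested. Every reporter library was above every KO and FL library for 21.4%.

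Id2 stood at 17.5, 11.4 and 23.2 CPM in BRE-positive, 14.7, 13.4 and 26.3 CPM in BRE-negative, 3.08, 4.19, 4.65 and 6.05 CPM in KO and 3.35 and 4.07 CPM in FL libraries. The means were 17.3 ± 5.90, 18.1 ± 7.12, 4.49 ± 1.23 and 3.71 ± 0.508 CPM in the same order of groups. The reporter groups overlapped each other, KO overlapped FL, and every reporter library exceeded every Smad1/5 library, as for 21.4% of all genes. The third pair held the highest Id2 level of each reporter group.

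Id3 stood at 10.6, 17.9 and 19.0 CPM in BRE-positive, 15.4, 18.7 and 23.8 CPM in BRE-negative, 10.5, 14.97, 25.2 and 27.9 CPM in KO and 4.12 and 6.73 CPM in FL libraries. The means were 15.9 ± 4.59, 19.3 ± 4.23, 19.6 ± 8.23 and 5.43 ± 1.84 CPM in that order. KO and both reporter groups overlapped one another, and the FL libraries lay below the other 10. Over all genes tested, every KO library was above both FL libraries for 17.8%, and every reporter library was for 28.5%. The share with both was not counted.

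Id4 stood at 6.46, 7.13 and 8.92 CPM in BRE-positive, 6.66, 8.91 and 12.9 CPM in BRE-negative, 8.61, 9.05, 7.93 and 6.09 CPM in KO and 3.29 and 6.60 CPM in FL libraries. The means were 7.50 ± 1.27, 9.49 ± 3.16, 7.92 ± 1.30 and 4.94 ± 2.34 CPM. All neighbours in the order of the groups overlapped, and FL replicate 1 was the lowest of the 12 libraries.

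**Figure D1:**
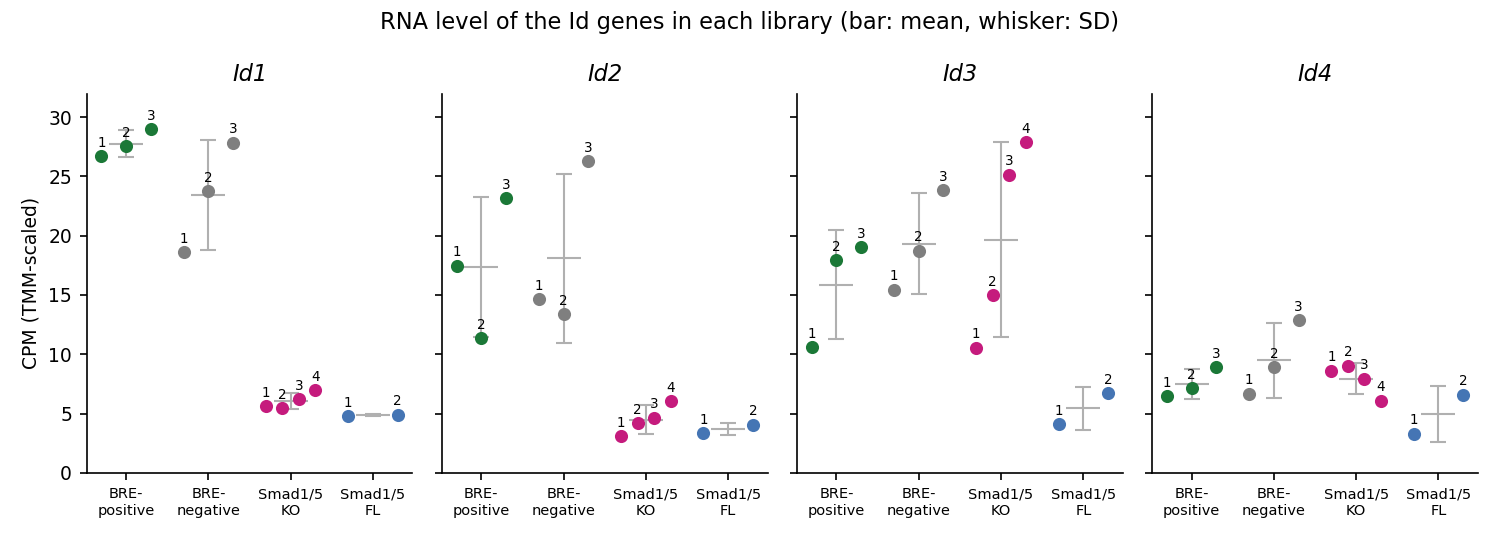
Each point is the CPM (TMM-scaled, linear axis from 0) of 1 library, numbered by replicate, for Id1 to Id4 in BRE-positive, BRE-negative, Smad1/5 KO and Smad1/5 FL cells, with the mean as a grey bar and the SD as whiskers. Id1 and Id2 were above 11 CPM in the reporter libraries and below 7 CPM in the Smad1/5 libraries, whereas Id3 reached 27.9 CPM in a KO library.

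The order of the 4 genes within a group depended on the length used to scale them. On the deposited TPM scale, on which counts are divided by gene length and library total, BRE-positive cells held Id2 at 39.4 ± 14.6, Id1 at 38.3 ± 4.78, Id3 at 20.3 ± 7.28 and Id4 at 13.2 ± 3.16 TPM (SD, n = 3). Divided by annotated exon length, the level in the same cells was 23.9 ± 0.989 CPM per kb for Id1, 8.85 ± 2.56 for Id3, 7.11 ± 2.42 for Id2 and 1.95 ± 0.330 for Id4. The length implied by the deposited TPM was 0.606 of that of Id1 for Id2, 1.10 for Id3 and 0.793 for Id4, whereas the annotated exon length was 2.10, 1.54 and 3.32 of that of Id1. In KO cells Id3 had the highest mean level of the family on both scales, at 23.5 ± 10.8 TPM and 11.0 ± 4.59 CPM per kb (SD, n = 4). In FL cells the 4 genes lay between 6.43 ± 0.249 TPM (Id1) and 8.32 ± 4.04 TPM (Id4), closer together than the spread of Id4 between the 2 libraries. This held on the TPM scale only. Divided by annotated exon length, Id1 was highest at 4.18 ± 0.0832 and Id4 lowest at 1.28 ± 0.607 CPM per kb (SD, n = 2).

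Summed over the 4 genes, the deposited level was 90.6, 103 and 139 TPM in BRE-positive libraries and 78.8, 96.9 and 145 TPM in BRE-negative libraries. It was 39.0, 46.0, 63.1 and 67.9 TPM in KO libraries and 23.9 and 35.1 TPM in FL libraries, so every KO library was above both FL libraries and below every reporter library. Id3 made up 30.8%, 36.5%, 48.9% and 50.8% of this sum in KO, 20.7% and 23.5% in FL, 13.2%, 22.8% and 18.2% in BRE-positive and 21.6%, 23.1% and 19.9% in BRE-negative libraries. Its share was higher in each KO library than in any other library, and no background over other genes was computed for this.

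**Figure D2:**
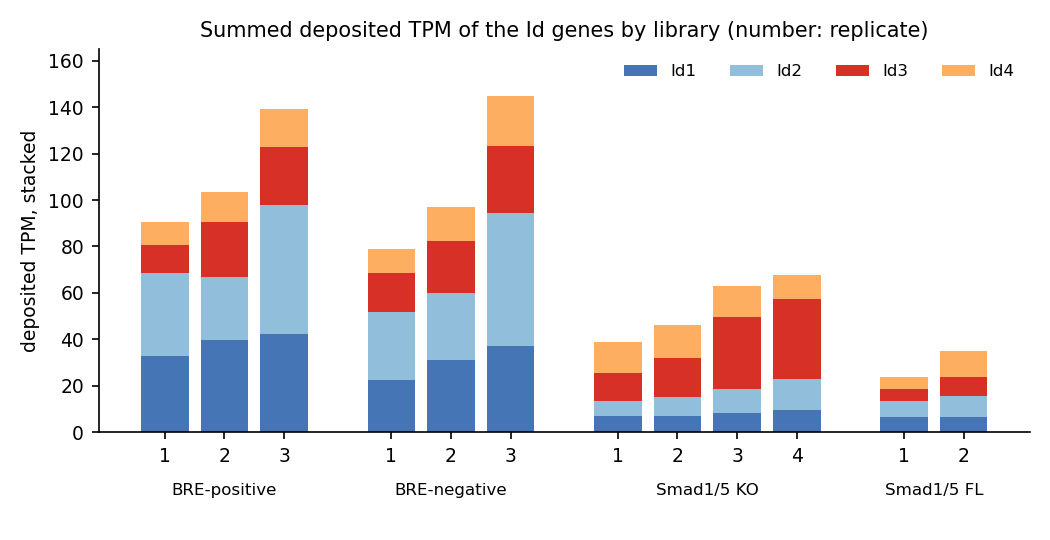
Bars stack the deposited TPM of Id1, Id2, Id3 and Id4 in each of the 12 libraries (linear axis from 0), grouped as BRE-positive, BRE-negative, Smad1/5 KO and Smad1/5 FL and numbered by replicate. The sums run from 78.8 to 145 TPM in reporter libraries, from 39.0 to 67.9 TPM in KO and from 23.9 to 35.1 TPM in FL libraries, and Id3 is the tallest segment in KO replicates 2, 3 and 4.

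The first comparison asked how the Id genes differ between cells of 1 culture that were sorted by reporter GFP. None of the 4 passed an adjusted p of 0.05 over all genes with edgeR's quasi-likelihood test, fitted with a term for the pair, where 459 of 15435 genes tested (2.97%) did, 1.96% as higher and 1.02% as lower. At an unadjusted p under 0.05, 1 member was higher (Id1) and 2 were lower (Id3 and Id4), and DESeq2 called none. Of all 15435 genes, 2817 had an unadjusted edgeR p under 0.05 in either direction. The median log2 fold change over all genes tested was -0.00.

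Id1 was higher in the BRE-positive library of each pair, with log2 differences of 0.52, 0.21 and 0.06 in pairs 1, 2 and 3. The fitted log2 fold change was 0.28 ± 0.08 (SE), or 1.21-fold, with an edgeR adjusted p of 0.0975. In an alternative fit with exon length and GC content offset per library, it was 0.33 ± 0.08 and passed (edgeR adjusted p = 0.0382). Id1 passed under 3 of 13 alternatives in all, and not with DESeq2 (adjusted p = 0.232). Over all genes, 17.6% were higher in 3 of 3 pairs, and 40.3% kept 1 direction.

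Id3 and Id4 ran the other way. Id3 differed by -0.54, -0.06 and -0.32 on the log2 scale in pairs 1, 2 and 3, with a fitted value of -0.29 ± 0.09 (SE, edgeR adjusted p = 0.106). Id4 differed by -0.04, -0.32 and -0.53, with a fitted value of -0.30 ± 0.11 (SE, edgeR adjusted p = 0.170). Both were lower in 3 of 3 BRE-positive libraries, as were 22.7% of all genes. Id2 differed by 0.25, -0.23 and -0.18 and had no common direction (-0.04 ± 0.09, edgeR adjusted p = 0.869).

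**Figure D3:**
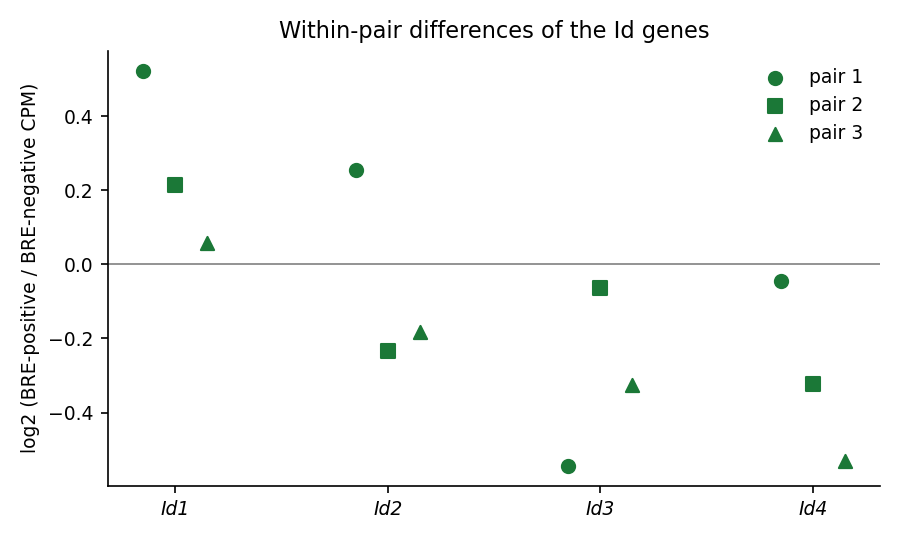
Points give the log2 ratio of CPM in the BRE-positive library over the BRE-negative library collected with it, for pairs 1 (circle), 2 (square) and 3 (triangle) of each Id gene. The ratio is above 0 in 3 of 3 pairs for Id1 (0.06 to 0.52), below 0 in 3 of 3 for Id3 and Id4, and mixed for Id2.

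The ratio of Id1 to Id3 within a library, which does not depend on the library scaling, was 2.52, 1.54 and 1.52 in BRE-positive cells and 1.20, 1.27 and 1.17 in BRE-negative cells. The groups did not overlap in this ratio, with pair 1 farthest apart. It sets a member higher in each pair over a member lower in each pair, so its direction within pairs was fixed by that choice. No test was run on it, and how many other pairs of genes separate the groups was not counted.

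Leaving out 1 pair moved different members past the threshold. Without pair 3, Id1 passed (log2 fold change 0.38, edgeR adjusted p = 0.0412). Id3 passed without pair 2 (-0.41, edgeR adjusted p = 0.0155), and Id4 without pair 1 (-0.42, edgeR adjusted p = 0.00301). Each of these fits rests on 2 pairs. The feeder fibroblast markers moved with the sort. Of 19 tested, 6 were lower in BRE-positive cells and none higher (edgeR, 14 lower and none higher at an unadjusted p under 0.05), with a median log2 fold change of -0.42. Their summed level was lower in the BRE-positive library of each pair, as were Id3 and Id4. So were the summed markers of primed epiblast, a later pluripotent state (2 of 6 tested called lower), neurectoderm (1 of 5) and trophectoderm (1 of 3). The part of any of these markers in the Id values was not tested.

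The other genes of the pathway were taken from 10 lists that cover BMP ligands, receptors, SMADs, antagonists and targets, and E proteins, further bHLH factors, other partners of ID proteins, CDK inhibitors and the cadherin axis. Of 84 list members tested in the reporter comparison, 1 was higher and 2 were lower, or 3.57% against 2.97% of all genes. None of 10 BMP ligands, 10 receptors, 7 SMADs and SMURFs, 7 extracellular antagonists and 13 other BMP-SMAD targets passed with edgeR or DESeq2. At an unadjusted edgeR p under 0.05 there were 1, 2, 1, 0 and 2 of them. Bmp4, a ligand that embryonic stem cells make, stood at 0.15 ± 0.08 on the log2 scale (SE, edgeR adjusted p = 0.323). The receptor genes Bmpr1a (0.06 ± 0.07, edgeR adjusted p = 0.665) and Bmpr2 (0.20 ± 0.07, edgeR adjusted p = 0.177) did not pass either.

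The inhibitory SMADs, which are themselves feedback targets of the pathway, gave -0.05 ± 0.13 for Smad6 (edgeR adjusted p = 0.864) and 0.06 ± 0.06 for Smad7 (edgeR adjusted p = 0.598). Among further targets, Dusp9, which encodes an ERK phosphatase, gave -0.11 ± 0.06 and the homeobox gene Msx2 -0.27 ± 0.35. The E protein genes, whose products ID proteins bind, stayed under the threshold at -0.18 ± 0.05 for Tcf3, 0.16 ± 0.07 for Tcf4 and 0.16 ± 0.05 for Tcf12, with edgeR adjusted p of 0.105, 0.269 and 0.148. All 3 had an unadjusted p under 0.05, as did 2817 of the 15435 genes tested.

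The 3 list members that passed were Mycn, Rb1 and Vim. Mycn, a bHLH factor of the MYC family, was lower at 55.9 ± 17.0 CPM in BRE-positive and 78.8 ± 23.1 CPM in BRE-negative cells (mean ± SD, n = 3 each). Its log2 fold change was -0.48 ± 0.05 (SE, edgeR adjusted p = 0.00039). Rb1, the retinoblastoma gene whose protein ID2 can bind, was higher at 42.5 ± 7.99 CPM in BRE-positive and 34.5 ± 4.78 CPM in BRE-negative cells (0.31 ± 0.07, edgeR adjusted p = 0.0272). Vim, which encodes vimentin, was lower (-0.27 ± 0.05, edgeR adjusted p = 0.0151). None of 7 CDK inhibitors passed (edgeR, with none at an unadjusted p under 0.05, and DESeq2). Cdh1, the E-cadherin gene, had -0.10 ± 0.05 and Cdh2, the N-cadherin gene, 0.38 ± 0.19.

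The second comparison asked how the Id genes differ in cells labelled as lacking Smad1 and Smad5, which encode receptor-activated SMADs. Id3 was higher in KO cells, and it was the only member that passed, where 801 of 15933 genes (5.03%) passed in either direction, 1.85% as higher and 3.18% as lower. Its log2 fold change was 1.86 ± 0.42 (SE), or 3.62-fold (edgeR adjusted p = 0.0489), close to the threshold of 0.05. The median over all genes was 0.01. Every KO library was above both FL libraries for Id3 and also for Id1, as was the case for 17.8% of all genes, and 34.7% did not overlap in either direction.

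The log2 fold change was 0.32 ± 0.16 for Id1 (SE, edgeR adjusted p = 0.280), 0.28 ± 0.27 for Id2 (edgeR adjusted p = 0.579) and 0.68 ± 0.29 for Id4 (edgeR adjusted p = 0.209). Their KO levels were given above, and for Id2 and Id4 they overlapped the FL levels. Id1 and Id2, like Id3, are known as BMP-SMAD targets, and neither was lower in the KO group. No member had a negative estimate in this fit.

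The Id3 call was not stable. Across all 17 alternatives the Id3 estimate stayed positive, between 1.25 (replicate block, without FL partners for KO replicates 3 and 4) and 2.24. The call held under 5 of them. It held with DESeq2 (1.85, adjusted p = 0.00792) and with RLE scaling (1.85, edgeR adjusted p = 0.0498). With edgeR it also held without a count filter (1.84, adjusted p = 0.00753), with all 12 libraries (1.85, 0.0184) and without KO replicate 1 (2.06, 0.0241). It was lost without KO replicate 2 (1.96, edgeR adjusted p = 0.0645), KO replicate 3 (1.70, 0.112) or KO replicate 4 (1.63, 0.104). Without FL replicate 1 (1.55) or FL replicate 2 (2.24) it was lost too, and these fits leave 1 FL library. Without FL replicate 1, 0 of all genes passed (edgeR). KO replicates 3 and 4, which had the highest Id3 levels, were the most alike of the KO libraries, with a median chi-square per gene of 1.23 against 4.04 to 4.43 for either of them with KO replicates 1 or 2. Summed into 1 sample they left Id3 at 1.67 (edgeR adjusted p = 0.106). Between KO replicates 1 and 2 the median chi-square was 2.49. Whether KO replicates 3 and 4, or 1 and 2, share a parental line cannot be told from the labels.

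**Figure D4:**
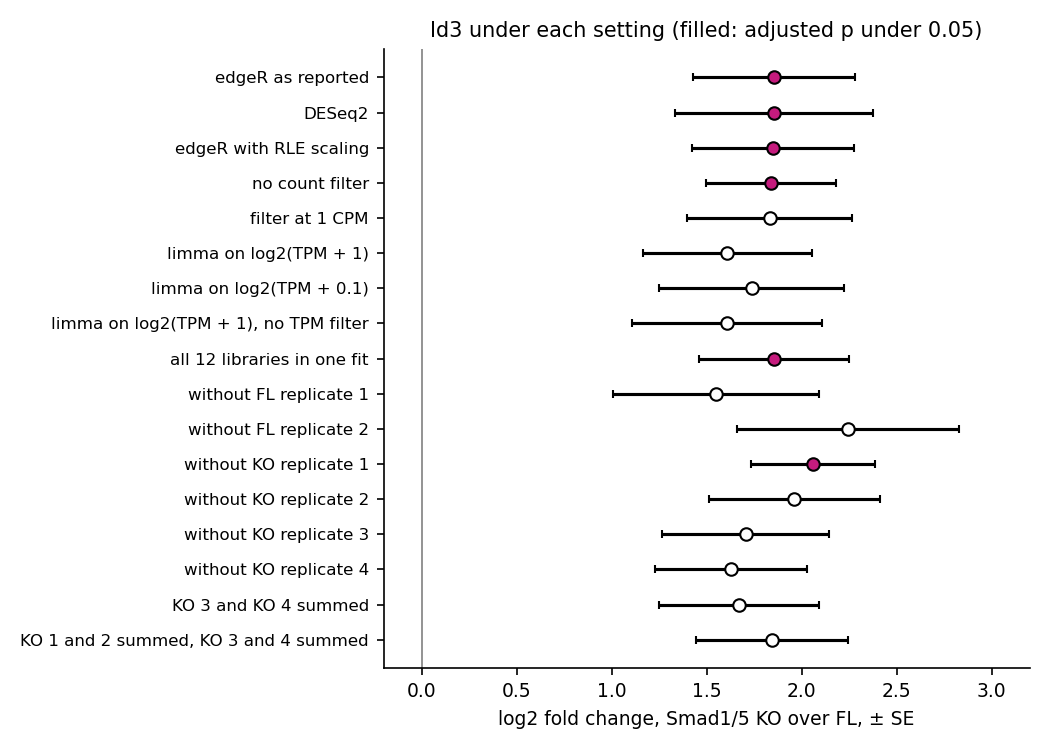
Points give the log2 fold change of Id3 in Smad1/5 KO over FL with its SE under the reported edgeR fit and its alternatives, filled where the adjusted p was under 0.05 (the fit with the replicate number as a block is not drawn). All estimates lie above 0, from 1.55 to 2.24, and most alternatives leave the threshold unmet.

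Within a library, the ratio of Id3 to Id1 was 1.87, 2.75, 4.04 and 4.01 in KO and 0.863 and 1.37 in FL cells. In reporter cells it was 0.397, 0.650 and 0.657 (BRE-positive) and 0.831, 0.789 and 0.856 (BRE-negative), so each KO library had a higher ratio than any other library. No test was run on this ratio, and the order was not counted for other pairs of genes. Across the KO and FL libraries, the summed level of the primed epiblast markers moved with Id3. Within each reporter group it fell from library 1 to 3 while Id3 rose. It was 166, 140 and 106 CPM in BRE-positive and 203, 175 and 127 CPM in BRE-negative libraries 1 to 3. The 7 markers summed to 509, 576, 709 and 735 CPM in KO replicates 1 to 4 and to 396 and 434 CPM in FL replicates 1 and 2, the same order of libraries as for Id3. Of them 1 passed as higher (Dnmt3b, a DNA methyltransferase gene, 0.79 ± 0.18, edgeR adjusted p = 0.0447). At an unadjusted p under 0.05, 3 were higher and 1 was lower, where 3646 of all 15933 genes had such a p in either direction. Zic2 (-0.47 ± 0.12, edgeR adjusted p = 0.0715) and Sox3 (-0.25 ± 0.30) had negative estimates, and Pou3f1 had 0.05 ± 0.23. Among 11 pluripotency markers tested, Nanog alone passed and was lower, at 418 ± 12.4 CPM in KO and 635 ± 11.8 CPM in FL cells (-0.60 ± 0.06, edgeR adjusted p = 0.00613). The part of these markers in the Id3 result was not tested.

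Of 78 list members tested in KO against FL cells, 5 were higher and 4 lower, or 11.5% against 5.03% of all genes. Among 13 other BMP-SMAD targets, 2 were higher and 2 lower, with a median log2 fold change of -0.52 against 0.01 over all genes. Msx2 was lower at 0.199 ± 0.0779 CPM in KO and 0.768 ± 0.0883 CPM in FL cells (SD, n = 4 and n = 2), on 4 to 9 counts in KO and 26 to 28 in FL. The log2 fold change was -1.93 ± 0.39 (SE, edgeR adjusted p = 0.0363). Dusp9 was lower at 36.4 ± 5.70 CPM in KO and 132 ± 62.8 CPM in FL cells (-1.85 ± 0.24, edgeR adjusted p = 0.0115). Fst, which encodes the activin and BMP antagonist follistatin, was higher at 3.86 ± 0.921 CPM in KO and 1.20 ± 0.0648 CPM in FL cells (1.68 ± 0.27, edgeR adjusted p = 0.0190). Prdm1, a transcriptional repressor gene of the germ line, was higher (0.44 ± 0.10, edgeR adjusted p = 0.0495). Smad6 stood at -0.76 ± 0.24 (edgeR adjusted p = 0.107) and Smad7 at 0.23 ± 0.16 (edgeR adjusted p = 0.421). Thus Id3, Fst and Prdm1 were higher while Msx2 and Dusp9 were lower among known targets of the pathway.

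Upstream of the SMADs, Bmp4 was higher at 20.4 ± 2.02 CPM in KO and 14.1 ± 0.985 CPM in FL cells (0.54 ± 0.12, edgeR adjusted p = 0.0489), the 1 call among 7 ligands. None of 10 receptors and none of 8 SMADs and SMURFs passed with edgeR. At an unadjusted p under 0.05 there were 0 and 3, and DESeq2 called 0 and 2. Bmpr1a had -0.03 ± 0.07 and Bmpr2 -0.36 ± 0.16. Of 4 antagonists, Fst was higher and Fstl3, which encodes a follistatin-like protein, was lower (-1.66 ± 0.37, edgeR adjusted p = 0.0468).

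Among the binding partners of ID proteins, none of the 3 E protein genes passed with edgeR or DESeq2, and none had an unadjusted p under 0.05. Their estimates were 0.17 ± 0.09 for Tcf3, 0.21 ± 0.18 for Tcf4 and -0.15 ± 0.14 for Tcf12. Of 15 other bHLH factors, Myc was higher at 7.43 ± 2.03 CPM in KO and 3.12 ± 0.0849 CPM in FL cells (1.26 ± 0.28, edgeR adjusted p = 0.0442), and Bhlhe40, a repressor linked to the circadian clock, was lower (-1.69 ± 0.39, edgeR adjusted p = 0.0498). Of 9 other partners Elk3, an ETS family factor, was higher (1.01 ± 0.17, edgeR adjusted p = 0.0194). None of 7 CDK inhibitors and 7 genes of the cadherin axis passed with edgeR, with 2 of each at an unadjusted p under 0.05 and 1 of each called by DESeq2. Cdh1 had 0.26 ± 0.08 (edgeR adjusted p = 0.114) and Cdh2 -0.03 ± 0.17.

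The third comparison set the level in the 6 reporter libraries, grown in serum, against that in the 2 FL libraries, grown in 2i. Serum, inhibitors, feeder cells, genotype, strain and the cell sort differ together here and cannot be told apart, and the comparison shares its FL libraries with that of KO and FL. All 4 members were higher in the reporter cells, against a background in which 9416 of 17112 genes (55.0%) passed in either direction, 26.3% as higher and 28.7% as lower. The median over all genes was -0.01. The difference was 5.25-fold for Id1 (2.39 ± 0.17 on the log2 scale, SE, edgeR adjusted p = 1.68e-07) and 4.76-fold for Id2 (2.25 ± 0.35, edgeR adjusted p = 0.000142). It was 3.22-fold for Id3 (1.69 ± 0.38, edgeR adjusted p = 0.00214) and 1.70-fold for Id4 (0.77 ± 0.29, edgeR adjusted p = 0.0381). For Id1, Id2 and Id3 every reporter library was above both FL libraries, as for 28.5% of all genes. For Id1 and Id2 every reporter library was also above every KO library, as for 21.4%.

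The Id4 call was lost when any of 3 sets of libraries was left out. Its log2 fold change was 0.35 without FL replicate 1 (edgeR adjusted p = 0.419), 0.56 without reporter pair 3 (0.114) and 0.80 without reporter pair 2 (0.0657). It was called without reporter pair 1 (0.92) and without FL replicate 2 (1.36). The calls of Id1, Id2 and Id3 held under each of 14 alternatives. The feeder fibroblast markers moved the same way, with 17 of 19 higher, none lower and a median log2 fold change of 3.90. The reporter libraries held 90.9 to 309 CPM of them, and their part in the Id levels was not tested.

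**Figure D5:**
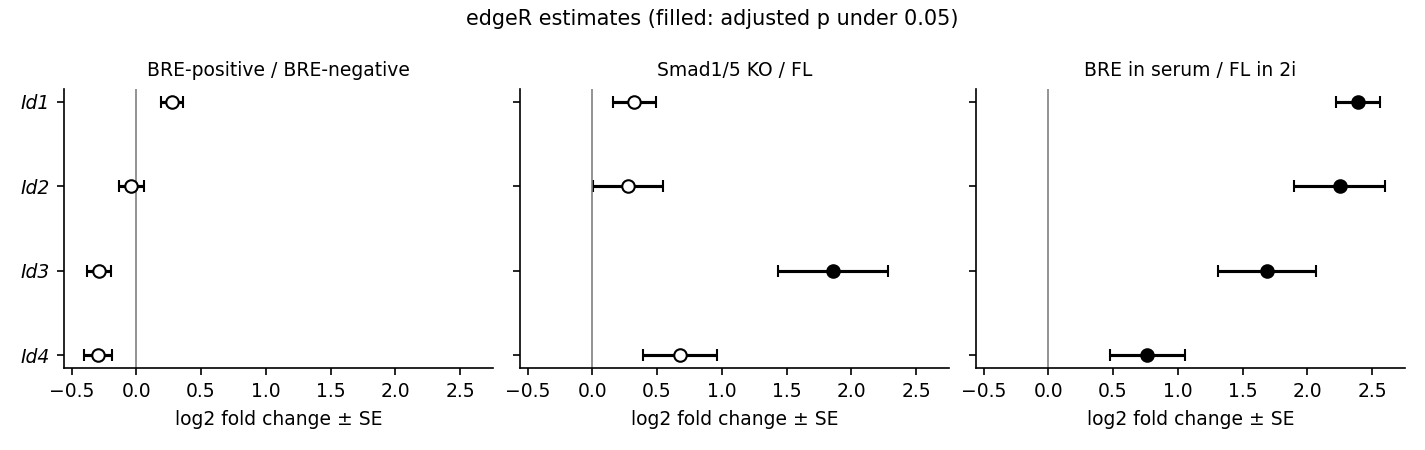
Points give the edgeR log2 fold change with its SE for Id1 to Id4 in BRE-positive over BRE-negative cells, Smad1/5 KO over FL cells, and reporter cells in serum over FL cells in 2i, filled where the adjusted p was under 0.05. No member is filled in the first panel, Id3 is in the second, and all 4 are in the third (0.77 to 2.39).

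Of 88 list members tested in this comparison, 32 were higher and 20 lower, or 59.1% against 55.0% of all genes. Among 10 ligands, 4 were higher and 2 lower. They included Bmp4 at 1.57 ± 0.15 (edgeR adjusted p = 2.33e-06), Gdf5 at 1.86 ± 0.56 on 2 and 9 counts in FL, and Gdf9 at -1.67 ± 0.33. Of 10 receptors and co-receptors, 4 were higher and 1 lower, among them Bmpr1a at 0.39 ± 0.10, Bmpr2 at 1.10 ± 0.14, Acvrl1 at 1.63 ± 0.30 and Rgma at -1.39 ± 0.32. Of 8 SMADs and SMURFs, 3 were higher, namely Smad1 (0.42 ± 0.16), Smad5 (0.59 ± 0.13) and Smad7 (0.83 ± 0.15). Smad6 (-0.87 ± 0.23) and Smad9 (-3.05 ± 0.48) were lower. Thus Smad6 and Smad9, which are also known BMP targets, were lower where the Id genes were higher.

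Of 7 antagonists, 6 were higher, with Grem1 at 4.03 ± 0.63 and Nbl1 at 3.37 ± 0.57 at the top. Both had 3 to 6 counts in each FL library. Of 16 other targets, 7 were higher and 4 lower, including Fst at 2.51 ± 0.41 and Gata3 at -2.52 ± 0.65, whereas Dusp9 (0.46 ± 0.29) and Msx2 (-0.40 ± 0.38) did not pass. Runx2 was also called, on 1 to 11 counts in the reporter libraries and 0 in FL. Among E protein genes Tcf12 was higher (0.61 ± 0.15), and Tcf4 (0.45 ± 0.20) and Tcf3 (-0.12 ± 0.09) did not pass. Of 16 other bHLH factors, 4 were higher and 5 lower. Olig2, a lineage factor of the neural tube, stood at 15.8 ± 3.17 CPM in BRE-positive and 18.7 ± 2.94 CPM in BRE-negative cells, against 0.206 ± 0.208 CPM in FL cells. Myc (2.41 ± 0.34) and Neurod1 (2.13 ± 0.35) followed it.

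Of 10 other partners of ID proteins, 4 were higher and 3 lower, with Rb1 at 1.89 ± 0.22, Elk3 at 1.24 ± 0.14 and Elk4 at 1.11 ± 0.15. Cdkn2a, Cdkn2b and Cdkn2c, inhibitors of CDK4 and CDK6, were 8.36-fold, 3.99-fold and 4.02-fold lower, and the other 4 CDK inhibitors did not pass. In the cadherin axis, Cdh1 (0.71 ± 0.10) and Zeb2 (2.32 ± 0.60) were higher, and Cdh2 (-1.02 ± 0.23) and Vim (-1.08 ± 0.21) were lower.

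How the members varied together was described by Pearson's r of log2(CPM + 0.1), over the 6 reporter libraries and, apart, over the 6 Smad1/5 libraries. Libraries within each set share culture, and the reporter libraries also share collection pairs. Each set pools its groups, so r includes any difference between them, and r within a group was not computed. Over the Smad1/5 libraries, Id1 and Id3 were each higher in every KO library than in any FL library. Their r there thus includes the difference between KO and FL cells given above. The alike KO libraries described above were counted separately. Id3 and Id4 had r = 0.834 over the reporter libraries and 0.604 over the Smad1/5 libraries. Id1 and Id3 had r = 0.224 over the reporter libraries and 0.939 over the Smad1/5 libraries. Id1 and Id2 had 0.416 and 0.752, Id2 and Id3 0.314 and 0.759, Id2 and Id4 0.672 and 0.137, and Id1 and Id4 0.413 and 0.397. With 6 libraries in a set, these values describe the libraries only.

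The genes most like each member were those with the highest value of the smaller of both r among 10297 genes. For Id1 they were Wdr26 (0.923 over the reporter libraries and 0.987 over the Smad1/5 libraries), Rdh10 (0.971 and 0.920) and Ireb2 (0.931 and 0.913). For Id2 they were Cyr61 (0.887 and 0.866), Ifi35 (0.868 and 0.862) and Zfp947 (0.849 and 0.891). For Id3 they were Mtus2 (0.949 and 0.980), Mettl17 (0.939 and 0.962) and Sap30bp (0.955 and 0.931). For Id4 they were Ick (0.867 and 0.932), Car13 (0.865 and 0.909) and Tsc22d1 (0.877 and 0.857). The members themselves were left out of this ranking. These are the highest of 10297 values over sets of 6 libraries, so high r follows from the choice and shows no link between the genes.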

How the data were processed

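Per the labels' protocols, libraries were made from total RNA with a strand-specific kit after depletion of ribosomal RNA. The submitters' processing notes name STAR 2.4.1d, featureCounts 1.4.6, DESeq2 1.6.3, CASAVA 1.8.2 and FastQC 0.11.3, and the builds GRCm38.p4 and mm10. They do not name the annotation release or the strand setting (not given in the sources used here). The authors deposited raw counts for 39179 Ensembl genes, and a table of TPM, a normalised signal whose gene lengths are not stated and were inferred relative to Id1 from the values. The TPM table has 39032 entries for 38310 genes.

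Members and gene lists were chosen with earlier results of these data known. The titles gave each sample's group and replicate number. The deposited counts were tested with edgeR 4.0.16 (R 4.3.3, quasi-likelihood, TMM, expression filter at a minimum count of 10 and total of 15), with Benjamini-Hochberg adjustment over all genes tested and a threshold of 0.05. The reporter fit took its 6 libraries with a term for the pair, since the design text says that they were collected in pairs. Same-numbered reporter libraries deviated together (r = 0.712, 0.589 and 0.529 across genes, against -0.545 to 0.122 for others). The KO fit used 6 libraries without a block, and the third fit all 12 libraries in 4 groups. CPM used TMM-scaled library sizes.

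Alternatives were DESeq2 1.42.0, RLE scaling, other count filters, all 12 or only 8 libraries, limma 3.58.1 on log2(TPM + 1) and log2(TPM + 0.1), filtered at a mean TPM of 1 or unfiltered, length and GC offsets (99.0% of genes tested had both values), the pair block added or removed, leaving out libraries and summing alike KO libraries. The length and GC offsets were run for the reporter comparison only. Named genes were the 4 members, up to 3 called members of each list by size, and 14 pathway genes in any case. A gene that this rule names is not reported here. The fits were tested on simulated counts. Positions and exon lengths came from GENCODE M21, and sequences from RefSeq (GRCm38.p6), where 3 of the 4 members were matched and the window of Id1 was not used.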

Additional observations from a re-analysis of the deposited data

How the results depend on the processing

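In the reporter comparison, all 13 alternatives kept the direction of Id1, Id3 and Id4. Without a count filter, Id1 (0.26, edgeR adjusted p = 0.0255) and Id3 (-0.30, edgeR adjusted p = 0.0153) passed, and with length and GC offsets Id1 did (0.33). Id2 turned positive with limma, at 0.0483 on log2(TPM + 1), 0.0497 on log2(TPM + 0.1) and 0.0483 without a TPM filter. Leaving out 1 pair gave 0.15 to 0.38 for Id1, -0.20 to 0.0418 for Id2, -0.41 to -0.18 for Id3 and -0.42 to -0.17 for Id4. The pair block decided the calls over all genes. Without it edgeR called 0 of all genes instead of 459, and the members stood at 0.26, -0.05, -0.27 and -0.33 for Id1 to Id4. Calls over all genes were 1010 without a count filter, 0 with limma, 0 with all 12 libraries, and 2225, 397 and 200 without pairs 1, 2 and 3. The cause of these shifts was not tested.

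In the KO comparison, Id3 missed the threshold with a filter at 1 CPM (1.83), with limma on log2(TPM + 1) (1.61), on log2(TPM + 0.1) (1.74) and without a TPM filter (1.61), with KO replicates 3 and 4 summed (1.67) and with both alike pairs of KO libraries summed (1.84). The replicate numbers shared by KO and FL did not pair the libraries (r = 0.263 for number 1 and -0.424 for number 2). KO replicates 1 and 2 deviated with FL replicate 1 (r = 0.263 and 0.424), and KO replicates 3 and 4 with FL replicate 2 (0.407 and 0.362). With 2 FL libraries, the r values with FL replicate 1 are the negatives of those with FL replicate 2. Whether this grouping follows the parental lines was not tested. With the replicate block Id3 stood at 1.25 (edgeR adjusted p = 0.0689), Id2 at -0.0377, and 0 of all genes passed. In that fit KO replicates 3 and 4 have no FL partner and do not enter the difference. Leaving out 1 library gave 0.24 to 0.37 for Id1, 0.09 to 0.42 for Id2, 1.55 to 2.24 for Id3 and 0.27 to 1.25 for Id4. Calls over all genes, 801 in the reported fit, were 1498 with DESeq2, 57 to 193 with limma, 249 and 32 with KO libraries summed, and 0 to 857 with 1 library left out.

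In the third comparison, Id4 missed the threshold with limma (0.74 on log2(TPM + 1), 0.81 on log2(TPM + 0.1), 0.74 without a TPM filter), with 8 libraries (0.76), and without FL replicate 1, pair 2 or pair 3. Leaving out 1 FL library or 1 pair gave 2.31 to 2.48 for Id1, 1.94 to 2.45 for Id2, 1.37 to 2.09 for Id3 and 0.35 to 1.36 for Id4. On simulated counts for the KO comparison, where 15933 genes were tested, edgeR recovered 2% of the genes given a 1.25-fold change. The recovered share was 30% for 1.5-fold changes, 68% for 2-fold changes and 94% for those of 4-fold. False calls came to 5.83% in that fit. For the reporter comparison, edgeR recovered 46% of 1.25-fold and 68% of 1.5-fold changes, with 6.13% false calls.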
